A study of Mus musculus with 12 samples.

Results

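Insl3 encodes insulin-like peptide 3, a small hormone that Leydig cells make and secrete alongside androgen. It is 1 of the 26214 gene symbols in the count table, taken here by its symbol, and it had at least 49 counts in each of the 12 libraries. Polyadenylated RNA came from mLTC-1, a line of mouse Leydig tumour cells kept in culture. The 6 control libraries came from cells given the DMSO vehicle for 24 h. The other 6 came from cells given 100 µM MSNBA for 24 h, a compound used in the series to block Glut5, which carries fructose into cells. All cells were grown in serum-containing medium, the labels name no gonadotropin, and no label ties a replicate to its own culture. The p-values therefore rest on the spread among these 12 libraries, and that spread may be technical.

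Insl3 belongs to the relaxin and insulin family. Its precursor enters the endoplasmic reticulum through a signal peptide, forms disulfide bonds, and is cut into chains that stay joined by those bonds. The hormone acts on the receptor Rxfp2, which in the fetus drives the gubernaculum during testis descent, and in the adult the peptide is used as a marker of Leydig cell number and differentiation. Its transcription is known to depend on Nr5a1 (steroidogenic factor 1) and Nr4a1 (Nur77). It is usually described as less tied to acute luteinizing hormone stimulation than testosterone output.

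Total counts ran from 59113 to 234225 in controls and from 94179 to 657251 in MSNBA libraries, a ratio of geometric means of 2.14 in favour of MSNBA (p = 0.0606, exact permutation, two-sided). The columns of the table stand as 4 control libraries, then controls 2 and 4 mixed with MSNBA 3 and 5, then 4 MSNBA libraries. The labels give no reason for that order, so results are also given without those 4 libraries. The 6 Leydig markers Star, Cyp11a1, Cyp17a1, Hsd3b1, Lhcgr and Nr5a1 all had counts, and their summed level was 6561 to 10009 CPM of the library total (counts scaled by library size) in controls and 6553 to 8128 in MSNBA. Markers of Sertoli cells summed to at most 79.7 CPM, of germ cells to at most 135, of macrophages to at most 35.7, of endothelial cells to at most 50.8, of peritubular cells and fibroblasts to at most 71.4 and of adrenal cortex to at most 42.5 in any library.

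The gene lies on the plus strand of chromosome 8, from 71689214 to 71690575 of mm10 in GENCODE M21, in 2 exons that add up to an mRNA of 623 bases. It sits inside the annotated span of Jak3, which encodes a cytokine receptor kinase and runs from 71676296 to 71690575 on the same strand. Exon 2 of Insl3, from 71690172 to 71690575, is also the last exon of the longest Jak3 transcript. The shared 404 bases are 64.8% of the Insl3 mRNA and hold the end of its coding sequence and all of its 3′ untranslated region. A shorter Jak3 transcript shares 53 of those bases, and the other 3 of the 5 Jak3 transcripts share none. A read from the shared exon cannot be assigned to 1 of these genes by position or strand, and how the authors' counting treated it is not given in the sources used here.

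The bases just upstream are shown because the known regulator Nr5a1 reads sites built on AAGGTC, and because the region lies in the last Jak3 intron. They are the 212 bases at chr8:71689002-71689213 on the plus strand, from RefSeq on GRCm38.p6, 5′ to 3′. Capitals mark AAGGTC on either strand.

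Insl3 upstream: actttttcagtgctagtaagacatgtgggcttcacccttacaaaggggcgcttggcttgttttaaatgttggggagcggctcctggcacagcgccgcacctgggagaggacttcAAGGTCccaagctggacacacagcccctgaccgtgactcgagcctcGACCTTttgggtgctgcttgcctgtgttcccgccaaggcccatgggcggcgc

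The window held 2 matches, 1 on each strand, which begin 136 and 90 bases before the RefSeq start at 71689252. That start lies inside exon 1 of the GENCODE transcript, which begins at 71689214, directly after the window. Both matches are therefore nearer to the GENCODE start than these distances. Of 32851 promoter windows of the same length in that table, 9.20% held at least 1 match and 0.551% held 2 or more. These are letter matches only, and binding was not measured.

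The Insl3 counts in controls 1 to 6 were 218, 69, 78, 59, 49 and 107. In MSNBA 1 to 6 they were 613, 153, 403, 83, 175 and 217. As a share of all counts the gene took from 0.0735% in control 6 (95% exact binomial interval 0.0603 to 0.0888%) to 0.126% in MSNBA 6 (0.110 to 0.144%). These intervals cover counting error only. Insl3 ranked 121st to 215th by count among the 8869 to 15117 genes detected in a library, above 97.8% of them or more in each. By count per base of transcript it ranked 69th to 117th, a scale that fits only if counts grow with length, which is not settled for molecule counts.

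After scaling, normalized CPM (counts over those of the tested genes, with TMM factors) in controls 1 to 6 were 1153, 1142, 1216, 946, 1062 and 917. In MSNBA 1 to 6 they were 1125, 1291, 1462, 1125, 1205 and 1618. The 3 lowest libraries, controls 6, 4 and 5, lay below all MSNBA libraries, and the 3 highest, MSNBA 6, 3 and 2, lay above all controls. Between these ends controls and MSNBA libraries were mixed, so the groups overlap. The whole range was 1.76-fold.

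**Figure D1:**
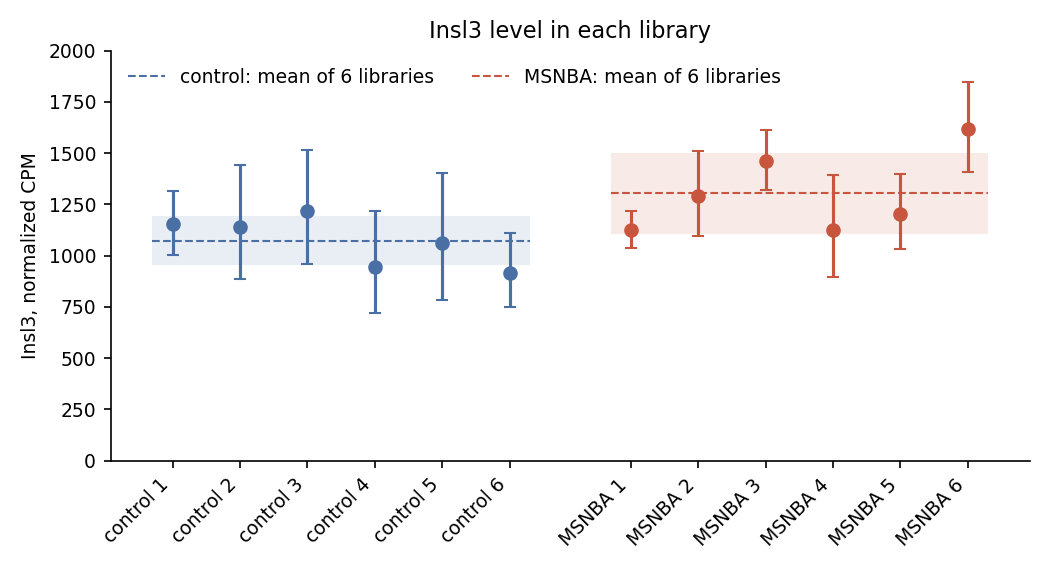
Normalized CPM of Insl3 in each library (points) with 95% exact Poisson counting intervals (bars). Dashed lines are the means of 6 libraries and shaded bands 1 SD. MSNBA 3 and 6, at 1462 and 1618, stand above every control, while MSNBA 1 and 4, both at 1125, lie among the controls.

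The order of the 12 levels was less certain than the values make it look. In all 11 pairs of neighbours in that order the 95% Poisson intervals overlapped. Of the 36 pairs of a control and an MSNBA library, 29 had the higher value in MSNBA and 7 had separate intervals, each with MSNBA higher. Among controls 0 of 15 pairs had separate intervals, and among MSNBA libraries 4 of 15 did.

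The 2 groups also differed in how far the spread went past counting error. The coefficient of variation was 11.2% in controls, where counting alone gives 11.4%, and 15.2% in MSNBA, where counting alone gives 7.42%. Pearson's statistic against a common level, divided by its 5 degrees of freedom, was 1.24 in controls and 6.30 in MSNBA, where 1 stands for counting error alone. Controls held 580 Insl3 counts in all and MSNBA libraries 1644, so an equal biological spread is harder to see in controls. Whether the spread itself differs with treatment was not tested. The fitted biological coefficient of variation of Insl3 was 13.8%, against a median of 13.0% over the tested genes.

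The comparison of MSNBA with control asks whether exposure to the compound changes this Leydig cell hormone gene in a study of androgen output. Insl3 measured 1073 ± 120 normalized CPM in controls and 1304 ± 199 in MSNBA (SD, n = 6 per group), a log2 fold change of 0.28 (SE 0.12). That is 1.22-fold, with a 95% interval from 1.04 to 1.43. By edgeR's quasi-likelihood test the unadjusted p was 0.0187 and the adjusted p 0.401 with Benjamini-Hochberg adjustment over 2614 genes, so Insl3 did not pass. In the same test 0.0765% of genes passed, all lower in MSNBA, and 4.17% were higher at an unadjusted p under 0.05. Insl3 ranked 119th by p and 288th by size of rise. The share at an unadjusted p under 0.05 was 8.95% in either direction and 4.78% lower. Over all tested genes the log2 fold change had a median of -0.0082.

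All 28 alternatives gave a value above 0 and 0 passed, with adjusted p from 0.260 to 0.999 by edgeR, limma-voom or DESeq2. The value was 0.30 by DESeq2 and 0.26 by limma-voom. It was 0.25 without the 4 libraries of the mixed columns (unadjusted p = 0.0953). Within those columns alone, controls 2 and 4 measured 1142 and 946 CPM and MSNBA 3 and 5 measured 1462 and 1205. Without the filter on low counts it was 0.43 (unadjusted p = 0.00139, adjusted p = 0.313), while the median of the same 2614 genes moved to 0.14. With Insl3 and Jak3 summed into 1 row it was 0.25.

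**Figure D2:**
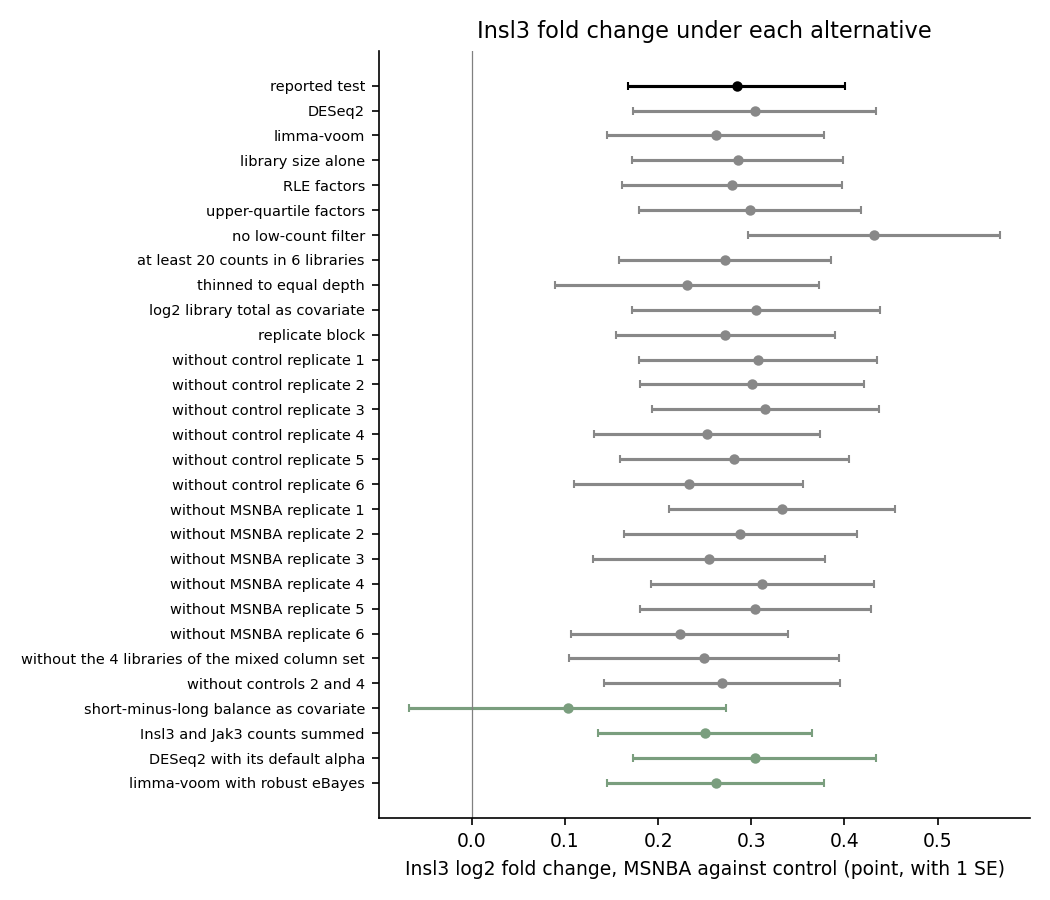
Log2 fold change of Insl3, MSNBA against control, in the reported test and under each alternative, with 1 standard error. Green marks 4 alternatives: the length balance in the model, the Insl3 and Jak3 sum, and DESeq2 and limma-voom with the options first run. The balance and the sum were chosen with earlier results known. DESeq2's alpha of 0.05 and default eBayes replaced the options first run once the first call counts were known. Every point lies above 0, the lowest at 0.10 with the balance of short and long genes in the model.

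Jak3 itself had few counts. It had 30 over the controls and 54 over MSNBA libraries, or 44.1 and 33.8 CPM of pooled totals, too few to be tested. Jak3 counts amounted to 3.78% of Insl3 counts over all libraries, and from 1.31% in MSNBA 2 to 10.2% in control 4. The next gene downstream, B3gnt3, which encodes a glycosyltransferase and starts 0.796 kb past Insl3, had 16 and 39 counts. Colgalt1, a collagen galactosyltransferase gene and the nearest tested gene on the near side of Jak3, lies 64.3 kb away and measured 101 ± 22.1 and 106 ± 21.0 CPM (SD, n = 6 per group). Tpm4, a tropomyosin gene and the nearest tested one on the far side, lies 445 kb away and measured 248 ± 78.4 and 284 ± 39.8 CPM (SD, n = 6 per group). Neither passed (adjusted p = 0.938 and 0.787 by edgeR).

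Raw Insl3 counts followed the depth of the library nearly in proportion. A line through log2 count against log2 total had a slope of 1.10 over 12 libraries, 1.03 within controls and 1.02 within MSNBA, where 1 means a constant share. Normalized CPM had a Pearson r of 0.330 with log2 total (permutation test, p = 0.295) and a Spearman rho of 0.406 (p = 0.191) over 12 libraries. Without the 2 libraries farthest from the median depth, control 5 and MSNBA 1, r was 0.512 (permutation p = 0.132). Within controls r was 0.00448 (exact permutation p = 0.993, n = 6) and within MSNBA it was -0.0405 (exact permutation p = 0.931, n = 6). On CPM of full totals without TMM factors, rho was 0.671 over all libraries (permutation p = 0.0200), and 0.257 within controls and 0.143 within MSNBA (exact permutation p = 0.658 and 0.803, n = 6 each). With 6 libraries per group, the values within groups are imprecise. MSNBA libraries were also deeper on the whole, so a part of depth in the Insl3 difference cannot be told apart from that of treatment. The deepest library, MSNBA 1, had the lowest MSNBA level, next to MSNBA 4. With log2 depth in the model the fold change was 0.31 (SE 0.13, adjusted p = 0.519 by edgeR). With all libraries thinned to 59113 counts its median over 10 draws was 0.23, and the draws ran from 0.15 to 0.42.

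**Figure D3:**
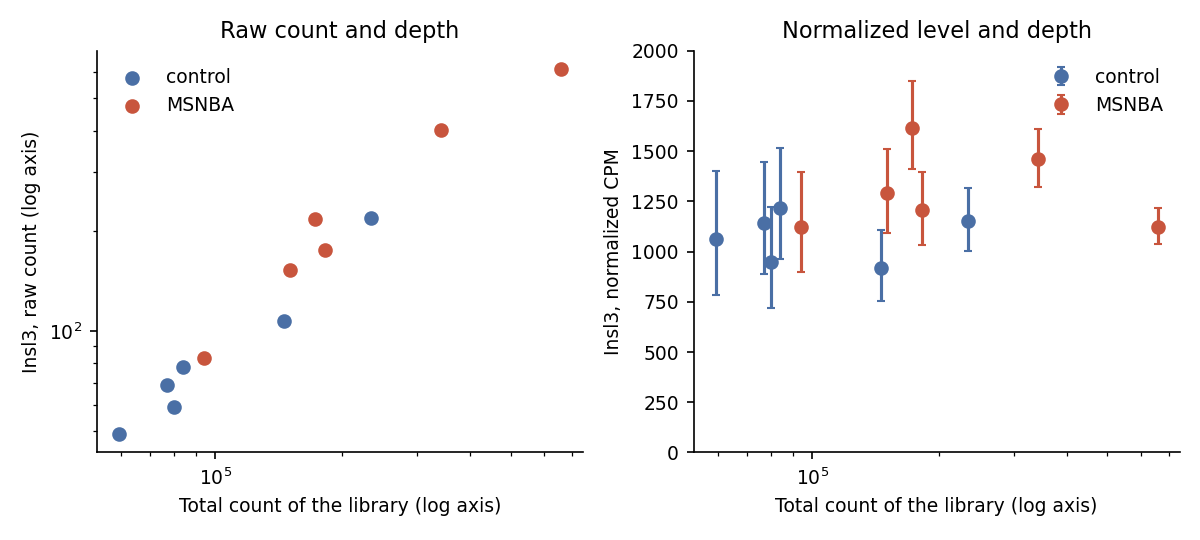
Left, raw Insl3 count against the library total, both on log axes; right, normalized CPM with 95% Poisson intervals against the same totals. The raw count follows depth with a slope of 1.10 on the log2 scale, and the normalized level has an r near 0 within each group.

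Transcript length moved with the treatment and with Insl3. In each library the mean log2 CPM of the 411 longest well-counted genes (exonic length of 3004 bases or more) was subtracted from that of the 412 shortest (1058 bases or less). Insl3, at 623 bases, would fall among the short genes but was left out. This balance of short against long genes, centred on 0 over the libraries, was -0.05 ± 0.04 in controls and 0.05 ± 0.06 in MSNBA (SD, n = 6 per group). The difference of 0.10 had p = 0.0130 by exact two-sided permutation, and 5 of 6 MSNBA libraries lay above all controls. Insl3 log2 CPM had a Pearson r of 0.686 with the balance (permutation p = 0.0133) and a Spearman rho of 0.608 (permutation p = 0.0399) over 12 libraries. Without the 2 libraries farthest from its median, control 3 and MSNBA 3, r was 0.791 (permutation p = 0.00544). Within controls r was 0.125 and within MSNBA 0.616 (exact permutation p = 0.822 and 0.206, n = 6 each). With the balance in the model, the Insl3 log2 fold change was 0.10 (SE 0.17, unadjusted p = 0.550, adjusted p = 0.999 by edgeR). Over all tested genes, the median log2 fold change was 0.05 in the 644 shortest and -0.06 in the 644 longest. The balance was examined after the data were seen, and its length measure was changed once after first values were known, from merged exons to basic transcripts. In these data it moves with treatment, and its part in the Insl3 difference cannot be told apart from that of treatment.

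**Figure D4:**
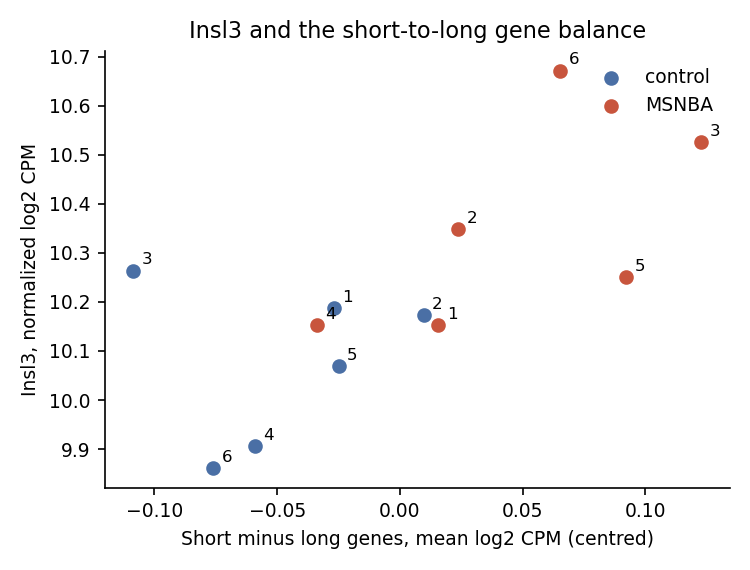
Normalized log2 CPM of Insl3 against the balance of short and long genes in each library (mean log2 CPM of the 412 shortest genes minus that of the 411 longest). Numbers are replicates. MSNBA 3, 5 and 6 are far right and controls 3, 4 and 6 far left, and r over 12 libraries is 0.686.

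A ratio of counts within a library needs no scaling factor, so Insl3 was also set against 6 genes of steroid output. The 0.5 counts added to each gene make the ratio depend on depth where counts are few. Its spread depends on depth as well. These were chosen with earlier results known, and their tests are no independent support. Relative to Cyp11a1, the side-chain cleavage enzyme that opens steroid synthesis, the log2 ratio in controls 1 to 6 was -1.30, -1.16, -1.28, -1.48, -1.36 and -1.77. In MSNBA 1 to 6 it was -1.27, -0.86, -0.82, -0.68, -1.33 and -0.38. MSNBA 2, 3, 4 and 6 lay above all controls, while MSNBA 1 and 5 lay within their range. The mean ratio was higher by 0.50 (SE 0.17) in MSNBA, with p = 0.0195 by exact two-sided permutation over 924 splits and 0.0682 adjusted over the 6 ratios.

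The ratio to Nr5a1, the regulator itself, was higher by 0.45 (SE 0.18), with 3 of 6 MSNBA libraries above all controls. The ratio to Hsd3b1, which forms the 4-ene-3-ketone of active steroids, was higher by 0.48 (SE 0.20), and that to Cyp17a1, the hydroxylase and lyase of the androgen route, by 0.33 (SE 0.14). Their exact permutation p-values were 0.0346, 0.0411 and 0.0455, each 0.0682 after adjustment, and in each case 6 of 6 MSNBA libraries lay above the median control. Relative to Star, which brings cholesterol into mitochondria, the difference was 0.14 (SE 0.29, exact permutation p = 0.665). Relative to Lhcgr, the luteinizing hormone receptor, it was -0.07 (SE 0.31, exact permutation p = 0.829). The Star and Lhcgr ratios varied most from library to library. In controls the Star ratio ran from 0.27 to 1.68 and the Lhcgr ratio from 2.73 to 4.31. Lhcgr had only 48 counts over the 6 controls and 145 over the 6 MSNBA libraries. The part of counting error in the range of its ratio was not tested. With 1 count added to each gene in place of 0.5, the Lhcgr difference was -0.00094.

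With every other tested gene in place of these 6, Insl3 was relatively higher in MSNBA at an exact p under 0.05 for 20% of 2613 genes (20.2% in either direction), against 4 of the 6. The median difference over those genes was 0.28. The share of the 2613 differences that lay lower was 79.3% for Cyp11a1, 76.9% for Hsd3b1, 72.1% for Nr5a1 and 56.4% for Cyp17a1. It was 29.0% for Star and 9.72% for Lhcgr. The share with an adjusted p under 0.05 over all 2613 ratios was 0. Leaving out control 3 brought 4 ratios past the adjusted threshold, those to Cyp11a1, Cyp17a1, Hsd3b1 and Nr5a1 (exact permutation, adjusted p from 0.0260 to 0.0357). Without the 4 libraries of the mixed columns the differences were 0.63 for Cyp11a1, 0.37 for Nr5a1, 0.20 for Hsd3b1 and 0.16 for Cyp17a1. The exact permutation p for Cyp11a1 was then 0.0286, the smallest that 4 against 4 libraries can give. The other p-values were 0.143, 0.371 and 0.343 by the same exact test, and those adjusted over the 6 ratios ran from 0.171 to 0.371. Leaving out MSNBA 5 brought that to Cyp11a1 past it (adjusted p = 0.0260).

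**Figure D5:**
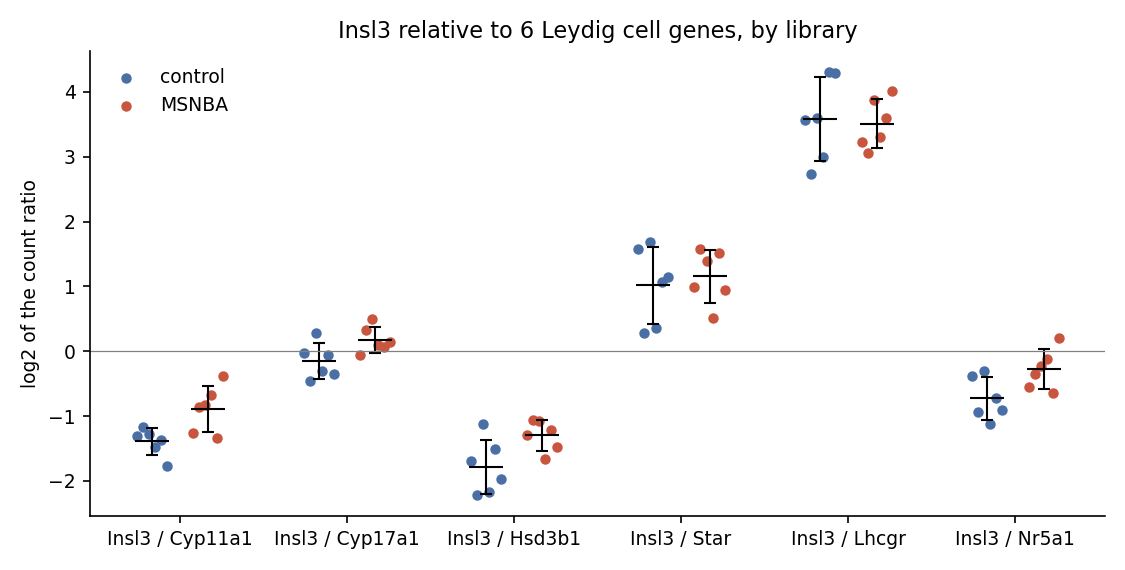
Log2 of the Insl3 count over the count of each of 6 Leydig cell genes, by library (points), with mean and SD of 6 libraries (black). The MSNBA points sit higher for Cyp11a1, Cyp17a1, Hsd3b1 and Nr5a1, with means 0.33 to 0.50 above the controls, and overlap fully for Star and Lhcgr.

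By itself, none of the 6 genes passed in the test over all genes. Cyp11a1 measured 2564 to 3129 normalized CPM in controls, with a median of 2801, and 1802 to 3036 in MSNBA, with a median of 2470. The fitted log2 difference was -0.21, with SE 0.11 and an adjusted p of 0.566 by edgeR. The values were -0.23 (SE 0.16) for Hsd3b1, -0.15 (SE 0.11) for Nr5a1, -0.05 (SE 0.12) for Cyp17a1, 0.14 (SE 0.25) for Star and 0.32 (SE 0.26) for Lhcgr. Without the filter on low counts, which moves the median of all tested genes to 0.14, the signs of Cyp17a1 and Nr5a1 turned. Without the 4 libraries of the mixed columns, those of Cyp17a1 and Hsd3b1 turned. In that fit Star was at 0.65 (SE 0.19, unadjusted p = 0.00180), Lhcgr at 0.69 (SE 0.31, unadjusted p = 0.0329) and Cyp11a1 at -0.37 (SE 0.13, unadjusted p = 0.00623), with adjusted p of 0.229, 0.587 and 0.379 by edgeR. Without controls 2 and 4 alone, Star was at 0.53 and Lhcgr at 0.59. With 1 library left out, Star ran from 0.01 (without control 1) to 0.34 (without control 2) and Lhcgr from 0.12 (without control 6) to 0.49 (without control 2). With the length balance in the model, Nr5a1 was at -0.41 and Hsd3b1 at -0.40, and with depth in the model Cyp11a1 was at -0.34.

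From library to library, no relation of Insl3 to these genes passed after adjustment, and 12 libraries could miss a sizeable one. Over 12 libraries, Pearson r of log2 CPM ran from -0.398 with Cyp11a1 to 0.352 with Lhcgr (permutation test, p adjusted over the 6 from 0.518 to 0.842). Spearman rho ran from -0.385 with Nr5a1 to 0.168 with Lhcgr (permutation, adjusted p from 0.711 to 1). The strongest relation after leaving out 2 libraries was that with Cyp17a1, where r went from 0.119 to -0.655 without control 2 and MSNBA 6 (permutation p = 0.0401, adjusted p = 0.138). Within groups of 6 libraries, adjusted exact permutation p-values of r ran from 0.838 to 0.988.

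The genes most like Insl3 were named by the correlation of log2 CPM centred on group means, over 12 libraries and 1671 other genes with a mean of at least 20 counts. This is a description, and all points share their libraries, depth and scaling. The highest r were 0.880 for Rpl37rt, 0.807 for Rpl21, 0.797 for Ndufa7, 0.749 for Rps15 and 0.744 for Rpl18. Ndufa7 encodes a subunit of respiratory complex I and the others encode ribosomal proteins, whose counts are uncertain because near-identical copies exist. The lowest were -0.827 for Itm2b, -0.801 for Prrc2c and -0.762 for Larp1, with mean counts of 39.7, 23.8 and 27.0. Both ends were picked from 1671 values with a median r of 0.0225. Over 12 libraries, values of this size can arise from the picking alone. Of the 10 most similar genes 5 were ribosomal protein genes, against 81 of all 1671, and of the 10 most opposite 0 were. The 10 most similar had a median exonic length of 635.5 bases and the 10 most opposite 2326, against 1849 over all. Across genes, r had a Spearman rho of -0.124 with length, a weak relation, and genes are not independent replicates. Among the 6 steroid genes, those counted well enough ranked from 334th (Cyp17a1, r = 0.267) to 1214th (Nr5a1, r = -0.161).

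The rest of the hormone family was at or near the limit of detection. Insl6, a testis relaxin-like peptide gene, had 2 counts in controls and 14 in MSNBA, Rln1 had 2 and 1, and Insl5 and Rln3 each had 2 and 0. Of the receptors, Rxfp2, through which Insl3 signals, had 2 and 2 counts, Rxfp3 0 and 4, Rxfp4 1 and 1 and Rxfp1 0 and 1. A count of 0 over a group allows up to 3 counts, or 4.41 CPM in controls and 1.88 CPM in MSNBA. Differences in these genes were not detectable at this depth.

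Genes that act on the Insl3 precursor were examined by list. Of 22 genes for entry into the endoplasmic reticulum and signal peptide removal, 18 were tested, 12 had values above 0 and 6 below, and 0 passed, with a median log2 fold change of 0.12 against -0.0082 over all genes. At an unadjusted p under 0.05 by edgeR, 2 were higher and 0 lower. Of all tested genes 48.5% had values above 0 and 4.17% were higher at that p. Sec61b, a translocon subunit, measured 341 ± 85.0 and 458 ± 44.7 CPM (SD, n = 6 per group; log2 fold change 0.43, SE 0.16, adjusted p = 0.373 by edgeR). Spcs1, a signal peptidase subunit, measured 283 ± 64.5 and 392 ± 21.9 CPM (SD, n = 6 per group; 0.41, SE 0.16, adjusted p = 0.389 by edgeR). With depth in the model Spcs1 was at 0.26 (unadjusted p = 0.157), and without controls 2 and 4 at 0.28 (unadjusted p = 0.106). The most abundant members, Sec61a1 and Ssr2, measured 1015 ± 239 and 883 ± 155 CPM in controls and 1003 ± 131 and 871 ± 84.7 in MSNBA (SD, n = 6 per group). As a share of library totals, the list summed to 3965 to 4777 CPM in controls and 4771 to 5234 in MSNBA, which overlap by a few CPM. The sum carries no TMM factors, and its difference was not tested. By normalized CPM, 0.230% of single tested genes had all MSNBA libraries above all controls. That share is for single genes with TMM factors, and none was computed for sums of lists.

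Of 9 disulfide-forming enzymes, 7 were in the table and 6 were tested, 3 above 0 and 3 below, and 0 passed. Prdx4, a peroxiredoxin of the endoplasmic reticulum, measured 412 ± 48.8 and 554 ± 90.5 CPM (SD, n = 6 per group; log2 fold change 0.41, SE 0.14, unadjusted p = 0.00754 and adjusted p = 0.318 by edgeR), and P4hb, protein disulfide isomerase, 1721 ± 191 and 1814 ± 341 CPM. Prdx4 was at 0.15 (SE 0.21, unadjusted p = 0.693) with the length balance in the model and at 0.27 (unadjusted p = 0.134) without the mixed columns. It was also among the 10 genes most like Insl3. Of 13 prohormone processing genes only Cpe, a carboxypeptidase, was counted well enough to be tested, with 111 ± 40.7 and 116 ± 46.5 CPM (SD, n = 6 per group). Pam, which amidates peptides, had 48 and 120 counts.

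Of 16 regulators of Leydig gene transcription, 5 were tested, 2 above 0 and 3 below, and 0 passed. Nr5a1 measured 1789 ± 291 and 1584 ± 235 CPM and Gata4, which binds beside Nr5a1 at many Leydig promoters, 195 ± 43.7 and 201 ± 23.3 CPM (SD, n = 6 per group). Nr4a1, the other regulator named above, had 4 counts in controls and 14 in MSNBA, too few to be tested. The repressor gene Nr0b1 had no counts. Of 14 steroid synthesis genes 10 were tested, 3 above 0 and 7 below, with a median of -0.10, and 0 passed. At an unadjusted p under 0.05, 1 was lower, against 4.78% of all tested genes. That was Hsd17b7, a gene of the hydroxysteroid dehydrogenase family, with 201 ± 39.6 CPM in controls and 126.7 ± 28.3 in MSNBA (SD, n = 6 per group; log2 fold change -0.65, SE 0.22, adjusted p = 0.252 by edgeR). With depth in the model it was at -0.41 (unadjusted p = 0.117). Among 10 other factors that Leydig cells secrete, 5 were tested and 1 passed, where 0.0765% of all tested genes passed. This list was chosen with earlier results known, so its share is no independent support. The gene that passed was Nrg1, a ligand of ErbB receptors. It fell, with 322 ± 105 CPM in controls and 168 ± 54.5 in MSNBA (SD, n = 6 each; log2 fold change -1.04, SE 0.21, adjusted p = 0.0295 by edgeR). By DESeq2 and limma-voom its call depended on an option: adjusted p was 0.852 and 0.119 with DESeq2's alpha at 0.05 and default eBayes, and 0.0426 and 0.0433 with DESeq2's default alpha and robust eBayes. The unadjusted DESeq2 p of Nrg1 was 8.7e-05 with either alpha. DESeq2 adjusted it over 19572 genes at 0.05 and over 979 at the default. Nrg1 did not pass after thinning, with depth or the length balance in the model, or without the 4 libraries of the mixed columns. Leaving out any 1 of controls 4, 5 and 6 or of MSNBA 1, 2, 3, 5 and 6 also ended its call (adjusted p from 0.0583 to 0.181 by edgeR). In this list 1 value was above 0 and 4 below. Vegfa, an endothelial growth factor gene, was also lower at an unadjusted p of 0.0121, with 299.9 ± 81.0 and 218 ± 45.3 CPM (SD, n = 6 per group; log2 fold change -0.49, SE 0.19, adjusted p = 0.373 by edgeR). It was at -0.31 with depth and -0.29 with the length balance in the model (unadjusted p = 0.145 and 0.300).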

How the data were processed

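The deposited table holds raw counts by gene symbol for 12 libraries, not normalized by the authors. BWA 0.7.4.4 and mm10 stand in the submitters' processing notes. Judged by its name, the table counts molecular identifiers of uniquely placed reads. No source used here gives the counting program, the strand setting or the gene annotation's release. Columns were matched to samples by library name and groups taken from the titles.

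Genes were filtered by filterByExpr, scaled by TMM and tested with edgeR 4.0.16 (robust quasi-likelihood F test, intercept and treatment) in R 4.3.3, with two-sided p-values adjusted by Benjamini-Hochberg over 2614 genes holding 79.2% of counts, at a threshold of 0.05. The SE is the log2 fold change over the square root of F. Log2 CPM used a prior count of 2 and ratios 0.5 counts. Permutation tests used all splits, or 100000 resamples for correlations over 12 libraries. Lengths are medians over GENCODE M21 basic transcripts. Alternatives used DESeq2 1.42.0, limma 3.58.1 (voom) and the settings listed in the closing section. In 5 simulated runs of this comparison on 2614 genes, each with 200 changed genes, the test recovered 29.3% of log2 changes of 0.5 and 92.1% of changes of 1, and 3.30% of calls were false.

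Insl3, the lists and the tests were chosen with earlier results of these data known. Named were Insl3, the 6 ratio genes, list members past the threshold or else the 2 most counted, the 5 highest and 3 lowest correlations, and the overlapping and nearest tested genes. B3gnt3, Nr4a1, Sec61b, Spcs1, Hsd17b7 and Vegfa were named after their values were seen.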

Additional observations from a re-analysis of the deposited data

Results flagged for a closer look

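Of 42 groups of 6 libraries tested for a library far from the others, 2 held one, where chance gives 2.1. Both concern Cyp17a1, the denominator of 1 of the Insl3 ratios. Its normalized CPM was 1572 in control 2, where the next control had 1174, and 1469 in MSNBA 6, where the next MSNBA library had 1174. Insl3 itself and its ratios held no such library.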

How the results depend on the processing

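The Insl3 fold change kept its direction and missed the adjusted threshold in 28 of 28 alternatives. It ran from 0.22 (without MSNBA replicate 6) to 0.33 (without MSNBA replicate 1) with 1 library left out, and the unadjusted p was above 0.05 without control 6 or MSNBA 6 (0.0654 and 0.0635, edgeR). Without controls 2 and 4 it was 0.27.

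Same-numbered libraries had residual correlations from -0.229 to 0.476 over 1672 genes, above 0.1 in 3 of 6 pairs. These values do not settle whether the numbers pair the samples, and pairing was not tested. With the replicate block the Insl3 value was 0.27 (adjusted p = 0.378) and 3 genes were called in all. The block changed no call of a gene or ratio reported here.

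The cause of the following changes was not tested. The Star ratio turned to -0.21 without controls 2 and 4 and -0.36 without the mixed columns. With 1 library left out the ratio differences ran from 0.40 to 0.59 for Cyp11a1, 0.26 to 0.42 for Cyp17a1, 0.40 to 0.61 for Hsd3b1, 0.35 to 0.53 for Nr5a1, -0.011 to 0.27 for Star and -0.24 to 0.078 for Lhcgr; the Star sign turned without control 2 and the Lhcgr sign without control 5, control 6 or MSNBA 2. Depth and Insl3 had r = -0.0405 within MSNBA. Without the 2 libraries farthest from the other gene's median, r turned to -0.655 for Cyp17a1, -0.189 for Star and -0.237 for Lhcgr. Within controls it turned to -0.0105 for Cyp17a1 and -0.147 for Star, and within MSNBA to 0.597 for Hsd3b1, -0.324 for Lhcgr and 0.00473 for Nr5a1. Of the 10 genes most like Insl3, 4 were shared without centring, 5 by rank correlation, 8 above a mean of 50 counts and 1 without the mixed columns. Fold changes turned to 0.098 and 0.0070 for Cyp17a1 and Nr5a1 without the low-count filter, to 0.086 and 0.036 for Cyp17a1 and Hsd3b1 without the mixed columns, and to 0.042 and 0.029 for Cyp17a1 without controls 2 and 4 or control 2 alone (-0.12 to 0.029 with 1 library left out).

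The count of called genes was 2 in the reported test, 15 without the low-count filter, 7 without controls 2 and 4, 3 without the mixed columns, 1 with the stricter filter, and 0 by DESeq2 (394 at an unadjusted p under 0.05), limma-voom (259), after thinning (71) and with depth (232) or the length balance (107) in the model. With 1 library left out it ran from 0 to 5. DESeq2 and limma-voom were first run with DESeq2's default alpha and robust eBayes, which gave 6 calls and 1. The options were changed after those counts were seen. The Insl3 fold changes did not move, while its adjusted p by DESeq2 went from 0.260 to 0.999. DESeq2 adjusted over 979 genes with the default alpha and over 19572 with 0.05. Its unadjusted p for Insl3 was 0.0197 in both runs. Counting error alone gives a coefficient of variation of 11.4% in controls, so depth limits the Insl3 comparison.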

Other observations

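Genes that mark the stage of Leydig cells gave little signal beside Insl3, which both fetal and adult Leydig cells express. Of 9 genes of adult maturation, Hsd17b3 and Hsd11b1 had 0 counts in all libraries and 3 were tested, of which 1 was above 0, 2 below and 0 passed by edgeR. Prlr, the prolactin receptor gene, measured 569 ± 154 CPM in controls and 548 ± 72.5 in MSNBA (SD, n = 6 per group). Vcam1, an adhesion molecule gene, measured 153 ± 84.1 and 154 ± 30.7 CPM (SD, n = 6 per group). Of 5 fetal genes 0 were tested. Cyp26b1, which degrades retinoic acid, had 17 and 44 counts, and Thbs2, a matrix protein gene, had 1 and 3.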
